A study of Mus musculus with 6 samples.

Results

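Accessible chromatin was examined around 7 genes that are switched on when mouse embryonic stem cells leave the naive state or enter the first lineages: Otx2, Fgf5, Pou3f1, Zic2, Zic5, Lhx1 and Nes. All peaks called within each gene and 50 kb either side (mouse build mm10) were collected from 6 lists of peaks, and peaks that overlapped by at least 1 bp were merged into regions. This gave 43 of the 65324 regions of the genome, for 7 of 21883 protein-coding genes. The measure was ATAC-seq, in which the Tn5 transposase inserts sequencing adapters into open DNA. The cells were CGR8 mouse embryonic stem cells, named Cdt1-MD in the series design, grown untreated on gelatin in a serum-free medium with N-2 and B-27 supplements, 3 µM of the GSK3 inhibitor CHIR99021, 1 µM of the MEK inhibitor PD184352 and leukemia inhibitory factor. These conditions were shared by the 3 groups mito, LM and eG1-1, each with replicates 1 and 2. The labels do not spell these names out. They are given in the order mito, LM, eG1-1, since the title of the series speaks of mitotic exit. Peak names of the LM lists read Telo.

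The medium used here holds embryonic stem cells in the naive state, in which formative and lineage genes are silent or low. When MEK signalling is released, cells pass into a formative state: the homeodomain factor Otx2 and the POU factor Pou3f1 (also called Oct6) rise, the growth factor Fgf5 follows as the classic marker of the epiblast after implantation, and the zinc finger factors Zic2 and Zic5 take part in epiblast and neural development. Lhx1, a LIM homeodomain factor, acts in the visceral endoderm and the mesendoderm of the embryo, and Nes encodes nestin, an intermediate filament of neural progenitors. During mitosis most factors leave condensed chromosomes, and accessible sites are kept to differing degrees.

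List length was 24598 and 30446 peaks for mito, 23867 and 20639 for LM and 32101 and 48396 for eG1-1. Each peak carries the authors' score, whose scale is not given and whose lowest value was 13 in every list. The median score of a list ran from 48 to 59. Scores describe and rank peaks within a list, and where no peak is listed the signal itself is unknown, as is the read depth behind each list. All replicate 1 lists came from 1 sequencing run and all replicate 2 lists from another, as the peak names show. In a bulk sample, fewer cells with an open site and less opening per cell cannot be told apart. The 7 genes were chosen by their roles with their peak calls and scores in these same lists already known, so the values below are descriptions without a test. A comparison of 2 lists against 2 could in any case not go below an exact permutation p of 0.333.

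Promoters, from 250 bases before to 50 after a gene's start, were in the RefSeq table (GRCm38.p6, the assembly of mm10) for 5 of the 7 genes. The promoters of Nes and Zic5 are shown because peaks covered them in some lists and not in others, that of Lhx1 because the nearest mito peak ended close to it, and that of Fgf5 because its peak lay beyond it. Each runs 5′ to 3′ along its gene, and capitals mark matches to the 11 motifs searched on both strands.
Nes, chr3:87970843-87971142, plus strand: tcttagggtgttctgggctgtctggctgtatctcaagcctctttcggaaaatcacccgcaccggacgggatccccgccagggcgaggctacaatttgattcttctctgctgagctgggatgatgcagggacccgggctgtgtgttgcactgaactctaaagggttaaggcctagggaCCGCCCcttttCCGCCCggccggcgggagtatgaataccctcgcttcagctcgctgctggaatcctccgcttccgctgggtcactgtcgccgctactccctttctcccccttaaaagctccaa
Zic5, chr14:122465609-122465908, minus strand: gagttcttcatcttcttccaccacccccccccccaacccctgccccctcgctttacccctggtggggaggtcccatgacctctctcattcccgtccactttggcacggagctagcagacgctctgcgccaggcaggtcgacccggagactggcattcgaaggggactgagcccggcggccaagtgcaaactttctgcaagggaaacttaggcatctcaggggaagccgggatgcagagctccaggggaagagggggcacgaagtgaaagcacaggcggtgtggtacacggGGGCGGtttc
Lhx1, chr11:84525485-84525784, minus strand: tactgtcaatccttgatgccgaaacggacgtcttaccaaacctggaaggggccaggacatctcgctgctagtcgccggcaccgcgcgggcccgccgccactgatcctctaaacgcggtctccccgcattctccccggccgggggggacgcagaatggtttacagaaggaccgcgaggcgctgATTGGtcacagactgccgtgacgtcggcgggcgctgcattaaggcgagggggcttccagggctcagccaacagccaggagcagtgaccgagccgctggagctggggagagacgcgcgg
Fgf5, chr5:98253934-98254233, plus strand: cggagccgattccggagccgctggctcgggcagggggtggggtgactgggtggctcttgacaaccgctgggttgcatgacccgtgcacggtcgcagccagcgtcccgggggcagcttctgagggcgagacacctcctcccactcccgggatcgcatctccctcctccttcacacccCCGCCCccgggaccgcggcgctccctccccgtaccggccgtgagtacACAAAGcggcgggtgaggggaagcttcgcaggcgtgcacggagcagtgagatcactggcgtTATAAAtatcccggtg

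The promoter letters differed between the genes. Nes held the SP and KLF motif GGGCGG at bases 178 to 183 and 189 to 194, both on the opposite strand. Zic5 held it at bases 291 to 296, and Fgf5 at bases 177 to 182 on the opposite strand. This motif was in 35.7% of the 32851 promoters of the table. Fgf5 also held ACAAAG, the core read by SOX and TCF factors, at bases 224 to 229 and the TATA box letters TATAAA at bases 285 to 290, which lie past the start site; 18.7% and 13.6% of promoters held these. Lhx1 held the NF-Y motif CCAAT at bases 183 to 187 on the opposite strand, as did 37.4% of promoters. CpG pairs numbered 31 in Lhx1, 29 in Fgf5, 18 in Nes and 15 in Zic5, against a median of 7 over the table. The octamer ATGCAAAT, the OTX motif TAATCC, the ESRRB motif TCAAGGTCA, the E-boxes CACGTG and CAGCTG, the ETS motif CCGGAAGT and the NRF1 motif were not in these 4 windows. Over the table, the shares with these letters were 1.74%, 7.06%, 0.423%, 7.15%, 16.3%, 3.89% and 0.971%, in the order named. Of the 4 Otx2 promoters in the table, 1 held TAATCC, 1 held CCAAT and 1 held TATAAA.

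On GRCm38.p6, Otx2 spans 48656781 to 48667644 and Zic5 and Zic2 span 122459160 to 122465658 and 122475384 to 122480328 on chromosome 14. Fgf5 lies at 98254184 to 98277033 on chromosome 5, Pou3f1 at 124657646 to 124660655 on chromosome 4, Lhx1 at 84517975 to 84525534 on chromosome 11 and Nes at 87971093 to 87980451 on chromosome 3. The windows differed in how much was called. The Nes window held 12 regions, those of Zic2 and Zic5 10 each, Otx2 8, Pou3f1 6, Lhx1 5 and Fgf5 1. Zic2 and Zic5 are neighbours, and 9 regions lay in both of their windows, so the pair had 11 regions in all. Of the 43 regions, 5 lay within 1 kb of an annotated end of a member gene, 4 lay inside a member, 7 were at an end of another protein-coding gene, 10 were inside another gene and 17 were between genes. The map of called regions shows the open ground around Fgf5 and Otx2, which have no other protein-coding gene in their windows, and the 6 other genes in that of Nes.

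**Figure D1:**
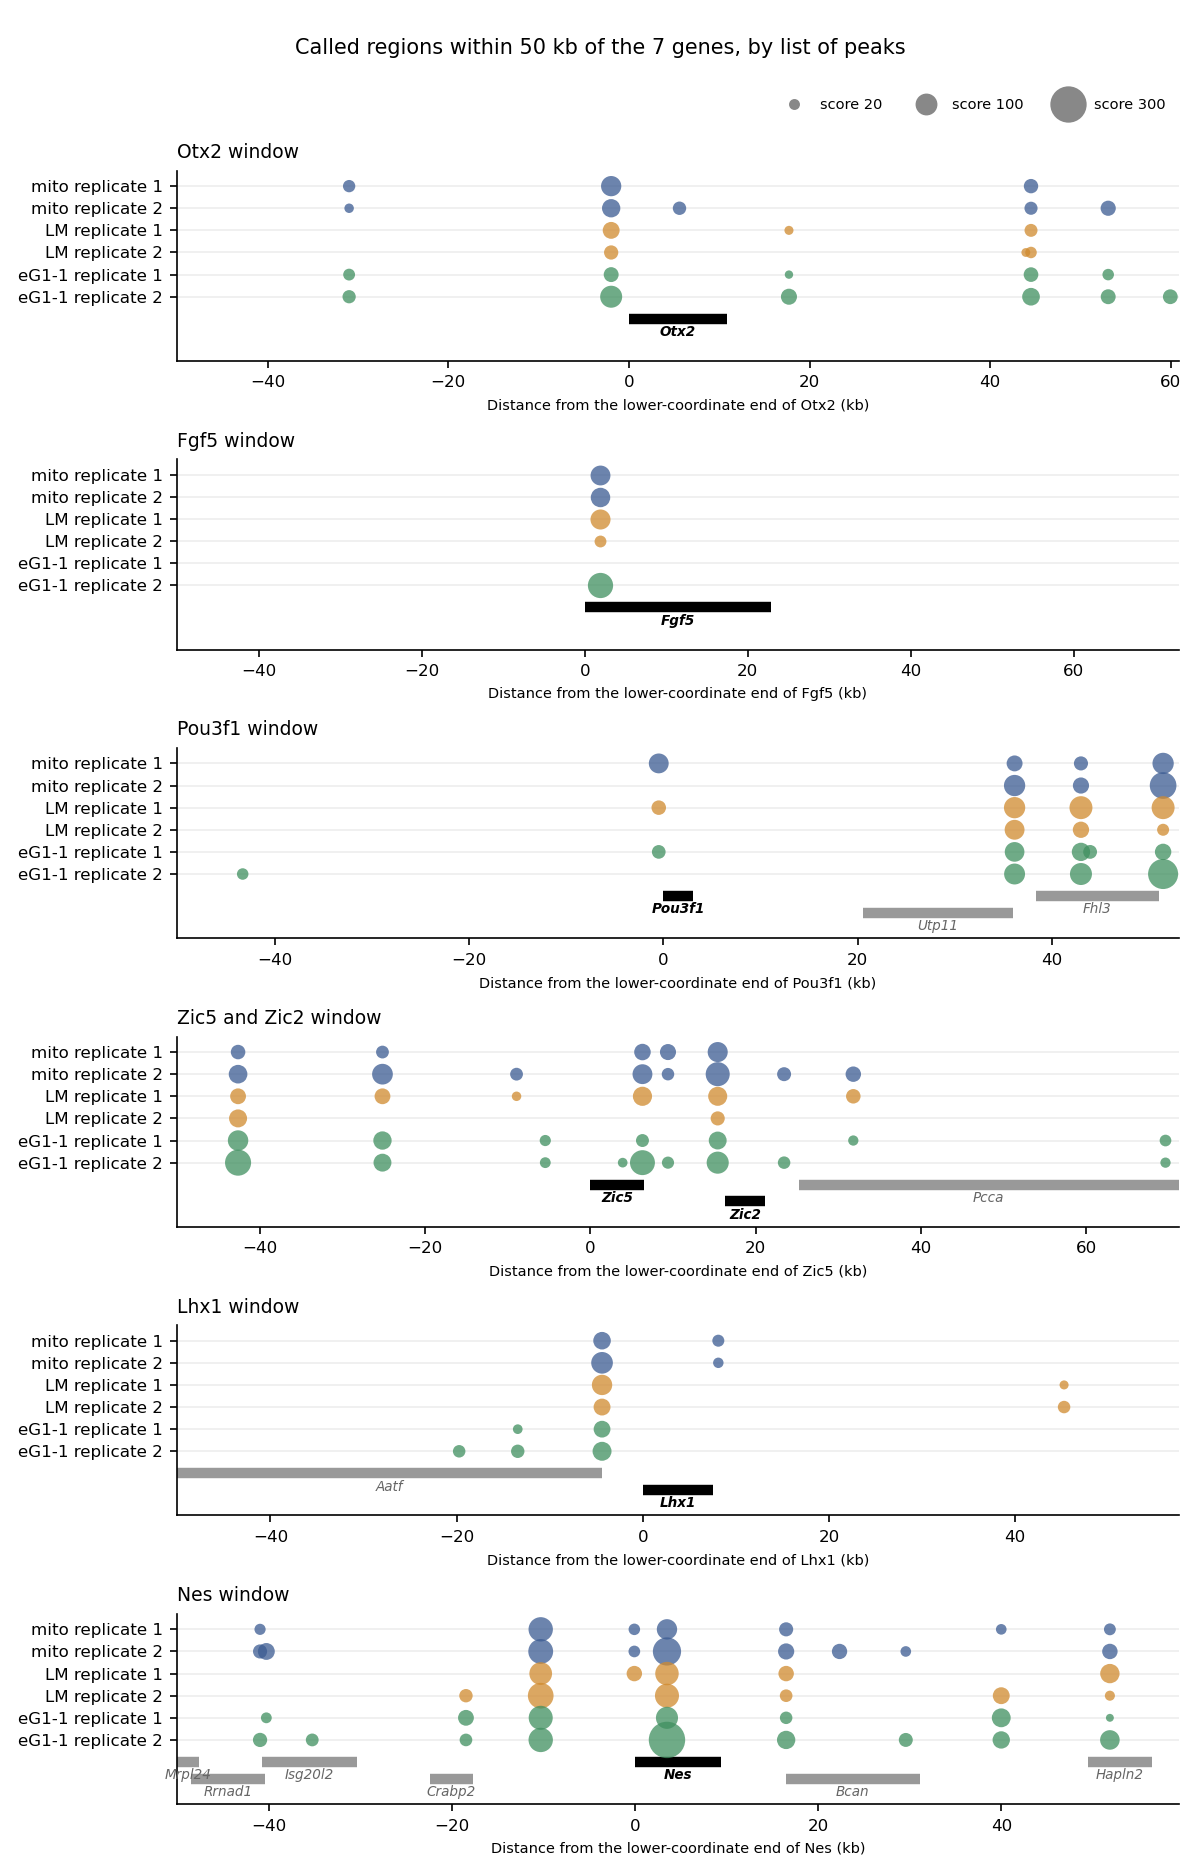
Called regions within 50 kb of the 7 genes, 1 row per list of peaks, plotted by the distance of a region's centre from the lower-coordinate end of the gene (kb). Circle area is proportional to the authors' score, black bars are the 7 genes and grey bars other protein-coding genes; the Fgf5 window holds 1 region, and the columns of circles filled in all rows are the 12 regions held by all 6 lists.

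The region with the highest score in the Fgf5 window was its only one. It lay inside Fgf5 on chromosome 5 between 98255673 and 98256297, downstream of the printed promoter. It scored 101 and 97 in the mito lists, 103 and 36 in the LM lists and 163 in eG1-1 replicate 2, and eG1-1 replicate 1 had no peak. The 5 peaks were 426 to 545 bp wide and began 1439 to 1559 bp past the end of the printed promoter, so the promoter itself was covered in no list. The eG1-1 lists thus held both the highest score and the only absence, and the groups overlap. Rank within each list was 80.4% and 74.7% for mito, 81.0% and 32.3% for LM and 90.0% for eG1-1 replicate 2, given as the share of the list's peaks with a lower score. The nearest region beyond the window, 52213 bp from the gene, was held by the replicate 1 lists alone.

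Otx2 had no region within 1 kb of its annotated ends, but 1 lay just past that limit. This region, on chromosome 14 between 48653915 and 48655723 and 1057 bp beyond the lower-coordinate end, where the minus-strand gene ends, was held by all 6 lists. Its scores were 105 and 86 for mito, 73 and 52 for LM and 57 and 124 for eG1-1. The eG1-1 scores overlap both other groups, while both LM scores were below both mito scores. Scores of different lists are not on a common scale, and the whole-list medians were also lower for LM (53 and 48) than for mito (55 and 59). How many regions of the genome show this order was not counted, so it is no measure of a change. It had the highest score of the window in every list. A region at 48700849 to 48701764, which is 33204 bp past the other end, on the side of the gene's start, was also held throughout, with scores of 53 and 44 for mito, 43 and 34 for LM and 55 and 80 for eG1-1. Inside the gene only mito replicate 2 had a peak, from 48662222 to 48662547 with a score of 46, which ended 137 bp short of the innermost of the 4 promoters in the table. None of those 4 promoters was covered in any list.

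On either side of Otx2 lay regions that both lists of a group held and neither list of another did. The region from 48674069 to 48674940, 6424 bp upstream, had no peak in mito, 1 of score 21 in LM replicate 1, and scores of 18 and 66 in eG1-1. The region from 48625223 to 48626383, 30397 bp downstream, scored 39 and 23 in mito, was absent from LM and scored 36 and 45 in eG1-1. The region from 48709537 to 48710170, 41892 bp upstream, scored 59 in mito replicate 2, was also absent from LM and scored 34 and 57 in eG1-1. At the last 2 regions, which LM lacked, the peaks of the other groups outranked between 4.0% and 49.4% of the peaks in their lists. At the first region the LM replicate 1 peak outranked 3.8% of its list, and the eG1-1 peaks 2.3% and 57.0% of theirs. None of these calls was kept at equal list length or at a score of at least 50.

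Pou3f1 had its own region 112 bp beyond its lower-coordinate end, on chromosome 4 between 124656818 and 124657533. It scored 101 for mito, 54 for LM and 48 for eG1-1 in replicate 1, and no replicate 2 list had a peak there. Presence at this site thus followed the replicate number and not the group; replicate and sequencing run are the same split here and cannot be told apart. The highest score of the window, 231, lay 47974 bp away at an end of Fhl3, from 124708630 to 124709502. That region scored 116 and 182 for mito, 135 and 37 for LM and 69 and 231 for eG1-1. A region at an end of Utp11 (124693326 to 124694245) scored 65 and 116 for mito, 116 and 101 for LM and 99 and 112 for eG1-1. The third region held by all lists, inside Fhl3 (124700086 to 124701141), scored 51 and 67, 135 and 68, and 86 and 124 in the same groups. All 3 regions held throughout in this window therefore lay at or in neighbouring genes. The groups overlap at the ends of Fhl3 and Utp11, while inside Fhl3 both mito scores were below the other 4. Scores of different lists have no common scale and the share of all regions with this order was not counted, so it is no measure of a change.

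Zic5 and Zic2 lie side by side on chromosome 14, and both had a region at an end. The Zic2 region, from 122473897 to 122475215 and 168 bp beyond the lower-coordinate end of the gene, was held by all 6 lists. Its scores were 103 and 148 for mito, 93 and 51 for LM and 82 and 125 for eG1-1. The Zic5 region, from 122465051 to 122465848 over the gene's start, scored 70 and 101 in mito, 94 for LM replicate 1 and 43 and 159 for eG1-1, while LM replicate 2 lacked a peak. Between the genes, a region from 122468071 to 122469006 scored 66 and 40 in mito, was absent from LM and scored 38 in eG1-1 replicate 2. The highest score of the Zic5 window was 42055 bp from it, from 122415915 to 122417104, in a region held throughout with scores of 54 and 89 for mito, 64 and 83 for LM and 107 and 174 for eG1-1. Both eG1-1 scores were above all 4 others there. Scores of different lists are not on a common scale, so this order is no measure of a change. The highest score of the Zic2 window, 159, was that of the Zic5 region.

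Within these regions the peaks themselves reached different distances toward the genes. At Zic2 the peaks of mito replicates 1 and 2 and of LM replicate 1 were 1268, 1167 and 1319 bp wide and came within 203, 219 and 168 bp of the gene. The peaks of LM replicate 2 and of eG1-1 replicates 1 and 2 were 231, 253 and 655 bp wide and stopped 1000, 1000 and 805 bp short of it. The 2 peaks that stopped at 1000 bp fall just outside the 1 kb limit used for gene ends. At the printed Zic5 promoter the mito peaks covered 171 and 231 bp and the LM replicate 1 peak 240 bp. The eG1-1 replicate 2 peak covered 57 bp, the eG1-1 replicate 1 peak stopped 7 bp short of it, and LM replicate 2 had none.

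The Lhx1 window held a region in both mito lists alone. It lay on chromosome 11 between 84525837 and 84526346, 302 bp upstream of the minus-strand gene, and scored 37 and 28 in mito, while LM and eG1-1 lacked a peak. The peaks of mito replicates 1 and 2 lay 226 and 52 bp from the printed promoter, while in LM and eG1-1 the nearest peak was 11363 to 11543 bp away. These mito peaks were low in their lists, above 25.7% and 9.8% of peaks. A region 37437 bp upstream, from 84562972 to 84563499, scored 21 and 40 in LM and had no peak in mito or eG1-1. Another, 13266 bp downstream and inside Aatf (84504380 to 84504708), scored 24 and 46 in eG1-1 and had none in mito or LM. The highest score of the window belonged to the end of Aatf (84513080 to 84514121), which was held throughout with 79 and 120 for mito, 106 and 73 for LM and 72 and 92 for eG1-1.

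Nes had a region at its start that eG1-1 lacked and another inside the gene that every list held. The region at its start lies on chromosome 3 between 87970703 and 87971315. Its scores were 34 and 35 in mito and 61 in LM replicate 1, while LM replicate 2 and both eG1-1 lists lacked a peak. Of the printed promoter, mito peaks covered 213 and 145 bp and the LM replicate 1 peak 237 bp. The mito peaks ranked above 21.7% and 19.1% of their lists and the LM peak above 57.9%. Inside the gene, centred 3.48 kb from its start, the region from 87974174 to 87974973 was held by all 6 lists, with scores of 106 and 204 for mito, 141 and 148 for LM and 125 and 339 for eG1-1. It ranked above at least 82.3% of peaks in each list, and its score of 339 was the highest of the 43 regions. An intron of the rat nestin gene is known to hold an enhancer active in neural progenitors; the gene table gives no introns, so the region was not placed relative to it.

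The flanks of Nes held 3 more regions present throughout. The one 9934 bp upstream between genes (87960408 to 87961158) scored 152 and 158 for mito, 132 and 169 for LM and 148 and 152 for eG1-1. Every list ranked it above at least 88.2% of its peaks. The region at an end of Bcan (87986904 to 87988275) scored 51 and 67, 61 and 41, and 40 and 86 in these groups, and that inside Hapln2 (88022482 to 88023419) 36 and 61, 96 and 26, and 16 and 98. At an end of Crabp2, which encodes a retinoic acid binding protein, a region from 87952304 to 87952931 was absent from mito and scored 46 in LM replicate 2 and 64 and 41 in eG1-1. At the shared end of Rrnad1 and Isg20l2, a region from 87929980 to 87930275 scored 32 and 51 in mito, was absent from LM and scored 52 in eG1-1 replicate 2.

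**Figure D2:**
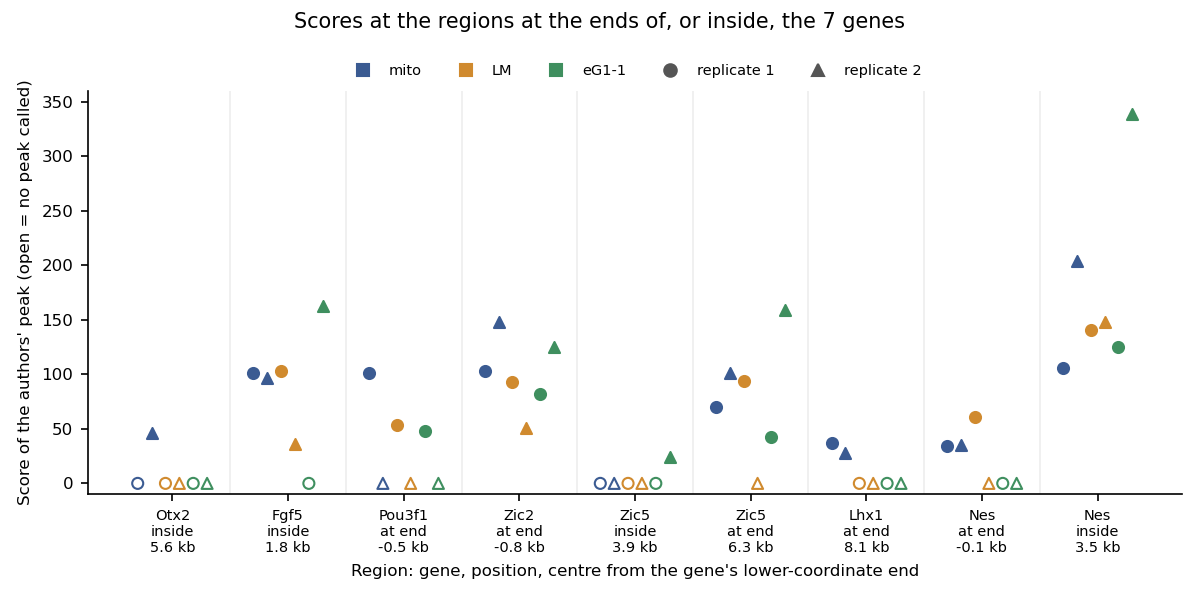
The authors' score in each list at the 9 regions at an end of or inside the 7 genes; circles are replicate 1, triangles replicate 2, and open symbols at 0 mean that no peak was called. The Pou3f1 region has filled circles and open triangles in all groups, the Lhx1 and Nes end regions are open in both eG1-1 lists, and the region inside Nes is filled in all 6 lists.

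Between eG1-1 and mito, 5 of the 43 regions (11.6%) were held by both eG1-1 lists but by no mito list, against 8.07% of all regions. They were the regions described upstream of Otx2, inside Aatf near Lhx1 and at Crabp2 near Nes, with one 5330 bp downstream of Zic5 (122453549 to 122453829, scores 32 and 30) and one inside Pcca, 48146 bp from Zic2 (122528475 to 122529020, scores 35 and 27). None of these 5 lay within 1 kb of an end of the 7 genes. Held by both mito lists but by no eG1-1 list were 2 regions (4.65%), against 1.85% of all regions, namely the one upstream of Lhx1 and the one at the start of Nes. These are few regions of low score. With the strongest 20639 peaks of each list, which is the length of the shortest one, or at a score of at least 50, none of these 7 regions kept its call. At equal length 1 region stood on the eG1-1 side, 30400 bp past Nes, and 1 on the mito side, at the shared end of Rrnad1 and Isg20l2. Without eG1-1 replicate 1, 10 regions stood on the eG1-1 side. The mito side had 5 without eG1-1 replicate 2 and 5 without mito replicate 1.

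Counted by genes, 2 of the 7, Lhx1 and Nes, had a peak within 1 kb of an end in both mito lists but in no eG1-1 list, against 1.97% of protein-coding genes. These 2 were known from these lists when the genes were chosen, so nothing is read from the count. In the opposite direction there were 0 of 7, against 1.61%. Against LM, 1 of the 7, Lhx1, had an end peak in both mito lists but in no LM list (2.17% of protein-coding genes), and 0 in both eG1-1 lists but in no LM list (2.35%). There were 0 with an end peak in both LM lists but in no eG1-1 list (0.48%), and 0 in both LM lists but in no mito list (0.356%). In the mito lists 5 and 4 of the 7 genes had an end peak, against 4 and 0 in the LM lists and 2 and 2 in the eG1-1 lists. Among all protein-coding genes the share was 46.5% and 50.4% for mito, 47.4% and 35.7% for LM and 42.1% and 52.7% for eG1-1. In eG1-1 replicate 1 the 2 genes were Pou3f1 and Zic5, and in replicate 2 Zic2 and Zic5. None of the 7 genes had such a peak in all 6 lists, against 27.8% of protein-coding genes. Zic2 lacked one only in LM replicate 2 and eG1-1 replicate 1, where its peaks stopped 1000 bp short, just outside the limit.

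The covered length was then compared, a measure chosen after the peaks at Zic2 had been seen. Of the 12 regions held throughout, 5 (41.7%) had fewer bp covered in both eG1-1 lists than in both mito lists. The share of such regions in the genome was 32.8%. There were 0 with more, against 7.5%. The 5 with fewer were those inside Nes, at Zic2, 42055 bp from Zic5, and the 2 held throughout beside Otx2. As the Zic2 peaks had prompted the measure, nothing is read from the count. At the region just past the end of Otx2, peaks covered 451 and 1158 bp in eG1-1 and 1397 and 1805 bp in mito. Inside Nes they covered 577 and 564 bp in eG1-1 and 745 and 698 bp in mito. Of the 8 promoters in the table for these genes, 2 were covered less in both eG1-1 lists than in both mito lists, against 6.53% of all promoters, and 0 more, against 2.99%. Among promoters covered in at least 1 mito or eG1-1 list, these were 2 of 2 for the genes (Nes and Zic5), against 16.8%, and 0 of 2, against 7.7%. The Nes promoter entered this set through its mito peaks alone, so it could not come out higher in eG1-1. Nothing is read from these promoter counts. Peaks of eG1-1 were narrower than those of mito over the whole lists too, with a median of 456 and 503 bp for mito, 459 and 336 bp for LM and 340 and 410 bp for eG1-1, and the part this played in the covered lengths was not tested.

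The LM lists, which were the shortest, held fewer of the regions than the lists of either flanking group. Found in both eG1-1 lists but in no LM list were 5 of the 43 regions (11.6%), against 9.38% of all regions. Besides the regions 5330 bp from Zic5, 48146 bp from Zic2 and inside Aatf, they were the pair on the outer flanks of Otx2. The reverse held for 1 region, the one 37437 bp upstream of Lhx1, against 0.459%. That region was also the 1 that both LM lists had and mito lacked, against 0.905%. In both mito lists but in no LM list there were 4, against 3.56%: those upstream of Lhx1, downstream of Otx2, between Zic5 and Zic2 and at Rrnad1 and Isg20l2. LM replicate 2, the shortest list, held 17 of the 43 regions and LM replicate 1 21. At equal list length the eG1-1 side had 0 regions against LM and the mito side 1. The windows then held 18 and 17 peaks for LM, 17 and 17 for eG1-1 and 23 and 22 for mito, so LM was not below eG1-1. Without LM replicate 1, 8 regions stood on the eG1-1 side and 7 on the mito side against LM.

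Regions near the 7 genes were shared by more lists than the average region of the genome. Of the 43, 12 (27.9%) were held by all 6 lists, against 15.5% of all regions, and 9 (20.9%) by a single list, against 42.4%. Of the 12, 4 were at an end of another gene, 2 inside one, 4 between genes, 1 at an end of a member (Zic2) and 1 inside a member (Nes). Of the 9, 5 came from eG1-1 replicate 2, the longest list, 2 from mito replicate 2, and 1 each from eG1-1 replicate 1 and LM replicate 2. Scores in the regions held throughout ran from 16 to 339. In the 12 regions that some group held in both lists and another in neither, they ran from 18 to 66. Whether windows around other genes differ in this from the genome was not tested.

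**Figure D3:**
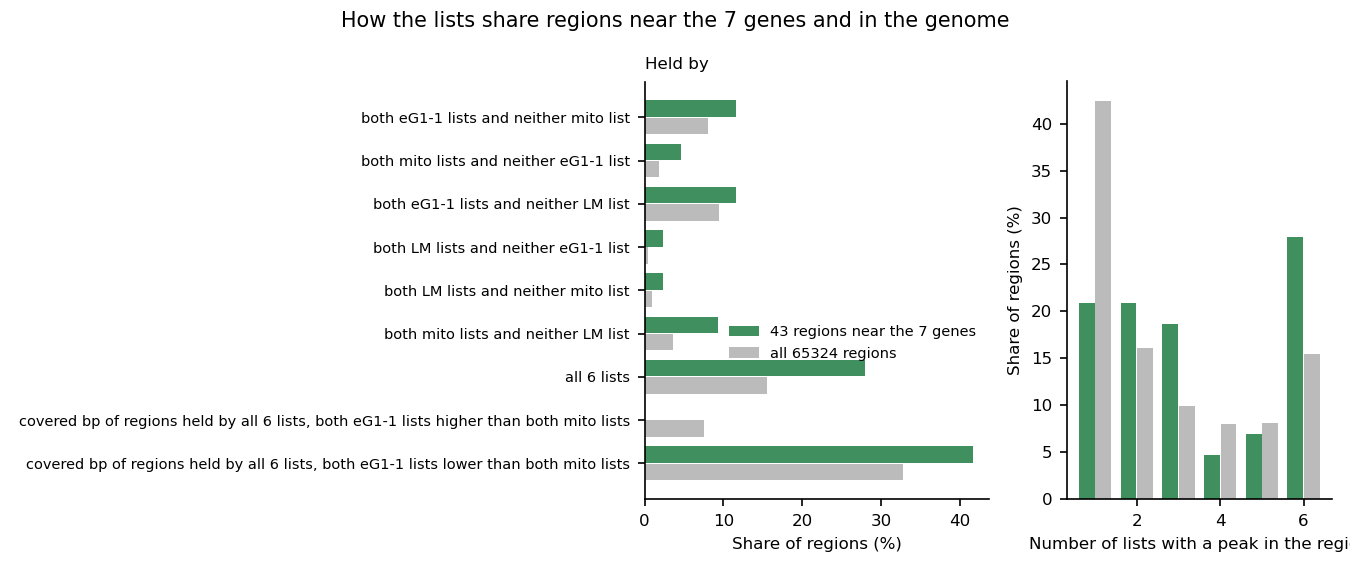
Left, the share of regions (%) held by the lists named on the axis, for the 43 regions near the 7 genes (green) and all 65324 regions (grey). Right, the share of regions (%) by the number of lists that hold them; 27.9% of regions near the genes were held by 6 lists, against 15.5% of all regions.

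Most peaks in the windows came from eG1-1 replicate 2, the longest list, and fewest from LM replicate 2, the shortest. The union of windows held 24 and 28 peaks for mito, 21 and 17 for LM and 27 and 33 for eG1-1. As a share of each list this was 0.0976% and 0.0920% for mito, 0.0880% and 0.0824% for LM and 0.0841% and 0.0682% for eG1-1. Their median score was 53.5 and 64 for mito, 73 and 51 for LM and 49 and 66 for eG1-1, beside whole-list medians of 55 and 59, 53 and 48, and 49 and 57.

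In number of peaks, 1 of the 7 genes, Otx2, had more in both eG1-1 lists than in both mito lists, against 23.5% of genes. There were 0 of 7 with fewer, against 1.6%. The Otx2 window held 4 and 5 peaks for mito, 3 and 3 for LM and 6 and 7 for eG1-1. Its region just past the gene's end was called as 2 peaks in mito replicate 1 and both eG1-1 lists, and as 1 in the other lists. Counted as merged regions, eG1-1 replicate 1 and mito replicate 2 held the same number for Otx2. So did mito replicate 1 and both LM lists. The eG1-1 minus mito difference was 2 peaks in each replicate, but −1.5 on average at equal list length. Otx2, Zic2 and Nes had more peaks in both eG1-1 lists than in both LM lists, against 35.2% of genes, and 0 had fewer, against 0.187%. Otx2 and Nes had fewer in both LM lists than in both mito lists, against 15.5%, and 0 had more, against 1.82%. Nes held 7 and 9 peaks for mito, 5 and 6 for LM and 7 and 9 for eG1-1. Zic2 held 4 and 7, 5 and 1, and 6 and 8 in the same groups, and Zic5 5 and 8, 6 and 2, and 6 and 8. Pou3f1 ranged from 3 to 5 peaks over the lists, Lhx1 from 2 to 3 and Fgf5 from 0 to 1. Fgf5 stood lowest in every list, level with Zic2 in LM replicate 2, and Nes highest in all lists but LM replicate 1, where Zic5 held 6.

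**Figure D4:**
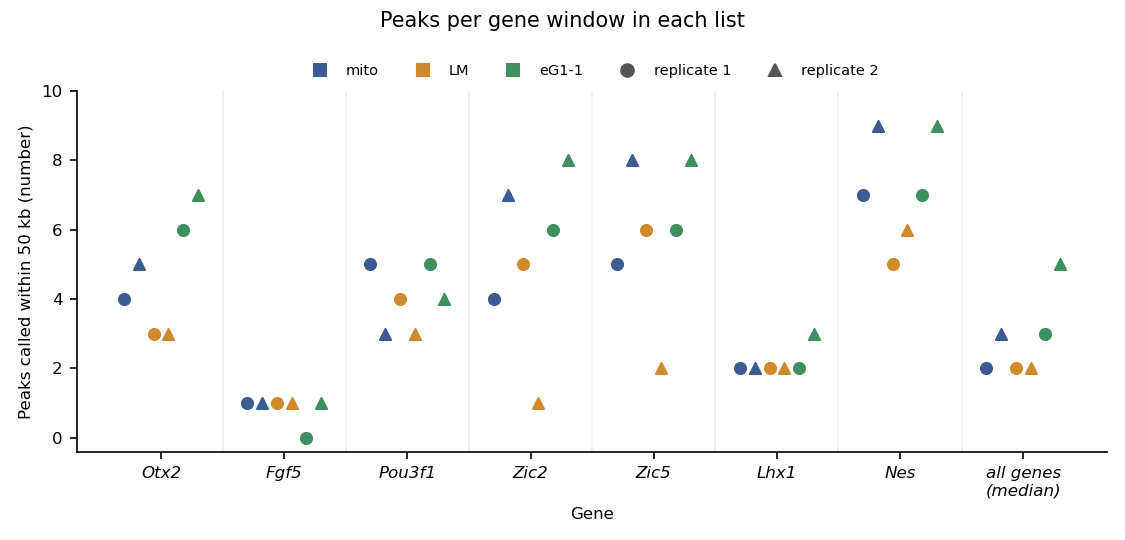
Number of peaks called within 50 kb of each gene in the 6 lists, beside the median over 21883 protein-coding genes; circles are replicate 1, triangles replicate 2, colours the groups. Otx2 holds 6 and 7 peaks in eG1-1 and 4 and 5 in mito, while the counts of the other genes overlap between these groups. A region called as more than 1 peak is counted more than 1 time.

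Just inside and outside the 50 kb limit, regions were weak or strong without order. The outermost Otx2 region, at 48885 bp, scored 56 in eG1-1 replicate 2 alone, and the next, at 50428 bp, 30 in mito replicate 2 alone. Beyond Nes, a region at 50326 bp scored 58 in eG1-1 replicate 2. Past Zic2, the region at 48146 bp was held by eG1-1 alone, while 1 at 53324 bp was held throughout, with scores of 154 and 223 for mito, 137 and 84 for LM and 142 and 324 for eG1-1.

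Genes at least 1 Mb away with the most similar top scores were found by comparing, for each list, the rank of the highest peak within 50 kb, summed over the 6 lists as absolute differences in percentile points. They were Hspb8, Pdx1 and Cdx2 for Otx2 (10.4, 17.9 and 17.9 points), where Pdx1 and Cdx2 have the same top score in each list. For Fgf5 they included Eif3m and Zfp606 (25.2 and 53.3), both without a peak in eG1-1 replicate 1. Pou3f1 was nearest to Atp6v0a1, Rprd2 and Dync1i2 (8.4 to 9.7), Zic2 to Pzp, Rgs9 and Rpp25 (11.4 to 14.7), and Zic5 to Zfp93, Ruvbl1 and Gm46965 (10.5 to 10.7). Lhx1 was nearest to Npl, Dhx40 and Exosc10 (17.1 to 18.8), and Nes to Gm13212, Zfp980 and 1700034I23Rik (5 to 6.4). Lists differ in length, so the measure describes rank within each list only.

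Other genes of the same programmes were read at their ends in the same way. Of 20 further formative and primed genes, 10 and 12 had an end peak in the mito lists, 12 and 6 in the LM lists and 9 and 15 in the eG1-1 lists. The shares were 50% and 60%, 60% and 30%, and 45% and 75%. Among all protein-coding genes they were 46.5% and 50.4%, 47.4% and 35.7%, and 42.1% and 52.7%. Those with one in all 6 lists, as 27.8% of protein-coding genes had, included Utf1, a chromatin factor of pluripotent cells, and Etv4, an ETS factor downstream of FGF signalling. Etv4 scored 91 and 145 for mito, 131 and 76 for LM and 116 and 255 for eG1-1, and Utf1 52 and 72, 28 and 60, and 77 and 69. None of these 20 genes had an end peak in both mito lists and in no eG1-1 list, against 1.97% of protein-coding genes. Nor had any in both eG1-1 lists and in no mito list, against 1.61%. With shares this small, nothing is read from these counts. Their median number of peaks within 50 kb was 4.5 and 4.5 for mito, 3.5 and 2.5 for LM and 4 and 6.5 for eG1-1. For the 7 genes it was 4 and 5, 4 and 2, and 6 and 7, and for all protein-coding genes 2 and 3, 2 and 2, and 3 and 5.

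As a check of the labelled cell type, 15 genes of naive embryonic stem cells and 10 of fibroblasts were read. End peaks were called for 11 and 9 of the 15 in the mito lists, 7 and 6 in the LM lists and 6 and 10 in the eG1-1 lists. The shares were 73.3% and 60%, 46.7% and 40%, and 40% and 66.7%. For all protein-coding genes they were 46.5% and 50.4%, 47.4% and 35.7%, and 42.1% and 52.7%. The shares of the 15 genes were thus not above those of all genes in LM replicate 1 and eG1-1 replicate 1. In LM replicate 2 (40% against 35.7%) and mito replicate 2 (60% against 50.4%) they were little above. Whether end peaks set so few genes apart in any list was not tested. Tbx3, Zfp42 and Klf5 had one in all 6 lists and Esrrb, Nr5a2 and Dppa3 in none. Within 50 kb the median was 5 and 6 peaks for mito, 3 and 3 for LM and 6 and 9 for eG1-1. Of the 10 fibroblast genes, 1 and 2 had an end peak in the mito lists, 3 and 2 in the LM lists and 3 and 4 in the eG1-1 lists, and Col3a1, Pdgfra, Twist1, Prrx1, Postn and Fap had none in any list. Col1a1 had one in all 6 lists, scoring 61 and 122 for mito, 116 and 53 for LM and 77 and 62 for eG1-1, and Thy1 had one in all but mito replicate 1. Their medians within 50 kb were 1 and 0.5 peaks for mito, 0.5 and 0.5 for LM and 1 and 2 for eG1-1.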

How the data were processed

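ATAC-seq peak lists of 6 samples (mito, LM and eG1-1, 2 each, grouped by title) were analysed. The deposited score of each peak is the authors' value on an unstated scale. Per the submitters' processing notes, the tools were MACS2 2.2.4, STAR 2.7.0e, SAMtools 1.10, deepTools 3.5.1, bedtools and Picard, and the builds mm10 and GRCm38. Their roles, the calling threshold and any Tn5 shift are not stated there. Peak names show calls per sample on paired-end fragments. The cell number differs between titles and protocol, and the labels do not say whether replicates were separate cultures.

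Peaks were merged at 1 bp overlap (Python 3.11.15, pandas 2.3.3) and checked on simulated intervals. Gene ends, names and promoters came from RefSeq tables on GRCm38.p6. Covered lengths were compared after the values had been seen. The members, gene lists and naming rules were chosen with earlier results of these data known. Named regions were, per window, the highest in score, those at gene ends, those held by all lists, and those held by both lists of a group and neither of another. The region inside Otx2, those beside the 50 kb limit, and the single genes named from the other lists were chosen after their values were seen. Some genes of the lists are not reported here. No test was run. Alternatives were equal list length, a score of at least 50, a 100 bp overlap, a 25 kb window and leaving out each list.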

Additional observations from a re-analysis of the deposited data

How the results depend on the processing

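Counts of regions held by both lists of a group and neither of another rested on weak peaks and changed with most settings. At equal list length they became 1 for eG1-1 and not mito, 1 for mito and not eG1-1, 0 for eG1-1 and not LM, 0 for LM and not eG1-1, 0 for LM and not mito and 1 for mito and not LM, and at a score of at least 50 they were 1, 0, 1, 0, 0 and 0 in this order. The lowest score kept at equal length was 31 and 44 for mito, 28 and 13 for LM and 38 and 66 for eG1-1. With an overlap of at least 100 bp, eG1-1 and not LM held 3. With 25 kb either side, eG1-1 and not LM held 2, mito and not LM 2, LM without eG1-1 0, LM without mito 0, and all 6 lists 6.

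When each list was left out in turn, the other stood for its group, which loosens the rule for that group by construction. Regions were also merged anew, and mito and not LM fell to 3 without eG1-1 replicate 2. They ran from 5 to 10 for eG1-1 and not mito, 2 to 5 for mito and not eG1-1, 5 to 14 for eG1-1 and not LM, 1 to 3 for LM and not eG1-1, 1 to 3 for LM and not mito, 3 to 10 for mito and not LM, and 12 to 14 for all remaining lists. The 14 for eG1-1 and not LM came without eG1-1 replicate 1, and the 10 for mito and not LM without mito replicate 1. Without eG1-1 replicate 2, eG1-1 and not LM held 8 and LM and not eG1-1 held 2. Without LM replicate 1, LM and not eG1-1 held 2 and LM and not mito 3, and without LM replicate 2 they held 3 and 2.

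The eG1-1 minus mito difference in peaks per window turned sign at equal length for Lhx1 (−0.5), Otx2 (−1.5), Zic2 (−1.5) and Zic5 (−1.5), and at a score of at least 50 for Pou3f1 (−0.5), Zic2 (−1.5) and Zic5 (−1.5). It did so for Pou3f1 without mito replicate 2 (−0.5), and for Zic5 without eG1-1 replicate 2 (−0.5) and without mito replicate 1 (−1). With each list left out in turn it ran from −0.5 to 1.5 for Pou3f1 and from −1 to 2 for Zic5. The cause was not tested. No paired analysis was possible because the results come from no test. As values, the eG1-1 minus mito differences in peaks within replicates 1 and 2 were 2 and 2 for Otx2, −1 and 0 for Fgf5, 0 and 1 for Pou3f1, 2 and 1 for Zic2, 1 and 0 for Zic5, 0 and 1 for Lhx1 and 0 and 0 for Nes. Read depth is unknown, so a missing peak sets no limit on signal.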

Other observations

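Among 20 further genes of early lineages, end peaks were called for 6 and 8 for mito, 11 and 4 for LM and 6 and 8 for eG1-1. The shares were 30% and 40% for mito, 55% and 20% for LM and 30% and 40% for eG1-1. Among all protein-coding genes they were 46.5% and 50.4%, 47.4% and 35.7%, and 42.1% and 52.7%. Only in LM replicate 1 was the share of the 20 genes above that of all genes. Their median number of peaks within 50 kb was 2 and 2.5 for mito, 2 and 2 for LM and 2 and 5 for eG1-1. Olig2, a bHLH factor of the oligodendrocyte and motor neuron lineage, scored 45 and 52 in mito and 78 in eG1-1 replicate 2, with none in LM. Tbx6, a T-box factor of the presomitic mesoderm, scored 105 in mito replicate 2 beside LM scores of 23 and 32, and had no eG1-1 peak. Meis1, a homeodomain factor, had an end peak in all 6 lists, with 38 and 67 for mito, 35 and 33 for LM and 32 and 78 for eG1-1. Hhex, a homeodomain factor of anterior endoderm, lacked one in LM replicate 2 alone, with scores of 71 and 47 in mito, 65 in LM replicate 1 and 77 and 64 in eG1-1. Other endoderm and mesoderm genes differed: Sox17, Cer1, Gsc, Gata4, Gata6 and Hand1 had none in any list, Mesp1 had 1 in LM replicate 1 alone (29) and Foxa2 in eG1-1 replicate 2 alone (81). Mixl1 scored 25 in mito replicate 1, 86 in LM replicate 1 and 48 and 91 in eG1-1, and Eomes 48 in mito replicate 2, 22 in LM replicate 2 and 25 and 49 in eG1-1.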
